A study of Mus musculus with 18 samples.

Results

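The circuit that ties lysosomal gene expression to amino acid supply was followed through 9 of its genes in mouse embryonic stem cells. They are the transcription factors Tfeb, Tfe3 and Mitf (the MiT/TFE family), folliculin (Flcn) and its partners Fnip1 and Fnip2, the Rag GTPases Rragc and Rragd, and the lysosomal channel Mcoln1. The members were chosen by symbol: 9 Ensembl genes of the 55471 in the count tables carry these names in GENCODE vM21, each with 1 identifier. The rule uses names only, but the set was proposed with earlier results of these data known.

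RNA was sequenced from E14 cells, an embryonic stem cell line, in 6 groups of 3 libraries. The Gcn groups were Eif2ak4-/- cells, which lack the kinase GCN2, and the Wt groups were wild-type cells. In each genotype, cells were held for 3 h in SILAC medium without leucine (Gcn Leu, Wt Leu), without arginine (Gcn Arg, Wt Arg) or with all amino acids (Gcn Unstarved, Wt Unstarved). All 6 groups shared lysine, leukaemia inhibitory factor and 5% dialyzed serum during the treatment, after growth on gelatin in 15% serum. The sources used here do not give the number of knockout clones or say whether replicates were separate cultures. The p-values therefore cover variation among these libraries only, and that variation may be technical.

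In fed cells, the Rag GTPases bring mTORC1 to the lysosome, where it phosphorylates Tfeb and Tfe3 and keeps them out of the nucleus. Folliculin, in complex with Fnip1 or Fnip2, switches the nucleotide state of RagC and RagD and so presents these factors to mTORC1. When amino acids are short, the factors enter the nucleus and bind CACGTG-containing elements in the promoters of lysosomal genes, and in mouse embryonic stem cells folliculin is known for allowing exit from naive pluripotency by restraining Tfe3. The libraries measure RNA only, not protein, phosphorylation or location.

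The library totals were 14777012 to 38814785 counts. Eif2ak4 averaged 4.658 to 5.473 CPM (counts scaled to the library total) over the Gcn groups and 27.56 to 31.78 CPM over the Wt groups. All 12 embryonic stem cell markers checked had a mean above 1 CPM, and their sum was 7360 to 8740 CPM in Gcn libraries and 6110 to 7230 CPM in Wt libraries. The 10 fibroblast markers summed to 7.06 to 11.2 CPM in Gcn libraries and 17.9 to 27.4 CPM in Wt libraries. Of these 10, 4 had a mean above 1 CPM, and Col1a1 ranged from 1.4 to 15.2 CPM. Fap stood at 0 in every library and Lum at 1 count at most. The 12 differentiation markers summed to 42.4 to 44.6 CPM in Gcn Leu, 47.8 to 58.1 CPM in Gcn Arg and 32.7 to 37.9 CPM in Gcn Unstarved, and to 38.8 to 44 CPM in Wt Leu, 39.3 to 45.4 CPM in Wt Arg and 41 to 41.5 CPM in Wt Unstarved. Mitochondrial transcripts took 2.04% to 2.99% of the counts. The 3 Gcn libraries numbered 1 stood apart from the other Gcn libraries on the third principal component (-26.2 to -23.3 against 5.37 to 20.4). A gene is called here when its Benjamini-Hochberg adjusted p, from edgeR's quasi-likelihood test over all genes of the fit, is under 0.05. Levels are CPM after TMM scaling, changes are log2 fold changes with standard errors (SE), and in such bulk libraries fewer cells of a type and less RNA per cell cannot be told apart.

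The CACGTG core that MiT/TFE proteins bind was looked for in the promoter windows of the members, as RefSeq defines their starts on GRCm38.p6 (250 bases before to 50 after). Of the 9 members, 3 held it in at least 1 of the 14 windows searched, namely Fnip1, Rragc and Mcoln1. Among all 27025 genes with a window, 8.09% held CACGTG. The stretch around the core is shown for these 3 members, each with a core before its start, with the core in capitals. A match describes the letters, not binding.
Fnip1, chr11:54438059-54438154, plus strand: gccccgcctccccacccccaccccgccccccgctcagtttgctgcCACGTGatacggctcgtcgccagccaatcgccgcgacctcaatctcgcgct
Rragc, chr4:123917276-123917371, plus strand: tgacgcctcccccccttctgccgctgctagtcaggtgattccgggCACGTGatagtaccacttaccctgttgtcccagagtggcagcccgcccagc
Mcoln1, chr8:3500403-3500456, plus strand: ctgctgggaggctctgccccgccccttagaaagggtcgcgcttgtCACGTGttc
The core begins 75 bases before the start in Fnip1 and 112 bases before it in Rragc. Mcoln1 has 2 cores in its window, beginning 71 and 45 bases before the start, and the first is shown. The longer form GTCACGTG, searched on both strands and containing the core, was found in Mcoln1 among the members and in 2.55% of all genes. Flcn, which like these 3 was called higher in every starvation comparison below, and the other 5 members held no core in these windows.

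Starvation raised the RNAs of folliculin, Fnip1, RagC and the Mcoln1 channel in both genotypes. Flcn, Fnip1, Rragc and Mcoln1, 4 of the 9 members, were called higher in all 4 comparisons of starved with unstarved cells. How many of all genes were called higher in all 4 was not counted, so only the shares of each comparison are given below. Of the transcription factors, Mitf was called higher in 3 of these comparisons, Tfeb lower in 1 and Tfe3 in none. In Gcn Leu against Gcn Unstarved, 5 members were called higher and 0 lower, where 21.8% of all genes tested were called and 11.7% were called higher. In Gcn Arg against Gcn Unstarved, 4 were called higher and 0 lower (28% of all genes called, 14.3% higher). In Wt Leu against Wt Unstarved, 7 were called higher and 0 lower (29.6% called, 15.5% higher). In Wt Arg against Wt Unstarved, 7 were called higher and 1 lower (40.9% called, 20.9% higher and 20% lower). The median log2 change of the 9 members was 0.44 in Gcn Leu, 0.34 in Gcn Arg, 0.52 in Wt Leu and 0.64 in Wt Arg, and the median over all genes lay between -0.01 and 0.01. The 2 comparisons within a genotype share their unstarved libraries. Without Gcn Unstarved 2, 2171 genes were called in Gcn Leu, against 3561. Cell state markers moved in the same comparisons. Of the differentiation markers tested, 2 were called higher and 2 lower in Gcn Leu, 5 and 1 in Gcn Arg (of 10), 0 and 1 in Wt Leu, and 2 and 2 in Wt Arg (of 11). Of the 12 stem cell markers, 5 were called higher and 1 lower in Gcn Leu, 4 and 3 in Gcn Arg, 4 and 4 in Wt Leu, and 4 and 4 in Wt Arg, with Tbx3 at 1.00, 1.29, 0.83 and 1.17 on the log2 scale in Gcn Leu, Gcn Arg, Wt Leu and Wt Arg. Of the fibroblast markers tested, 1 was called, higher in Wt Leu. Of 7 mitochondrial transcripts tested, 1 was called lower in Gcn Leu, 2 in Gcn Arg, 1 in Wt Leu and 1 in Wt Arg. Their part in the members' changes was not tested. Within Gcn, libraries with the same replicate number deviated together, most clearly those numbered 1. With the number as a block, 6 members were called higher in Gcn Leu, where 40.6% of all genes were called. In Gcn Arg 7 were called higher, where 46.4% of all genes were called. The calls the block added are given with each gene.

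**Figure D1:**
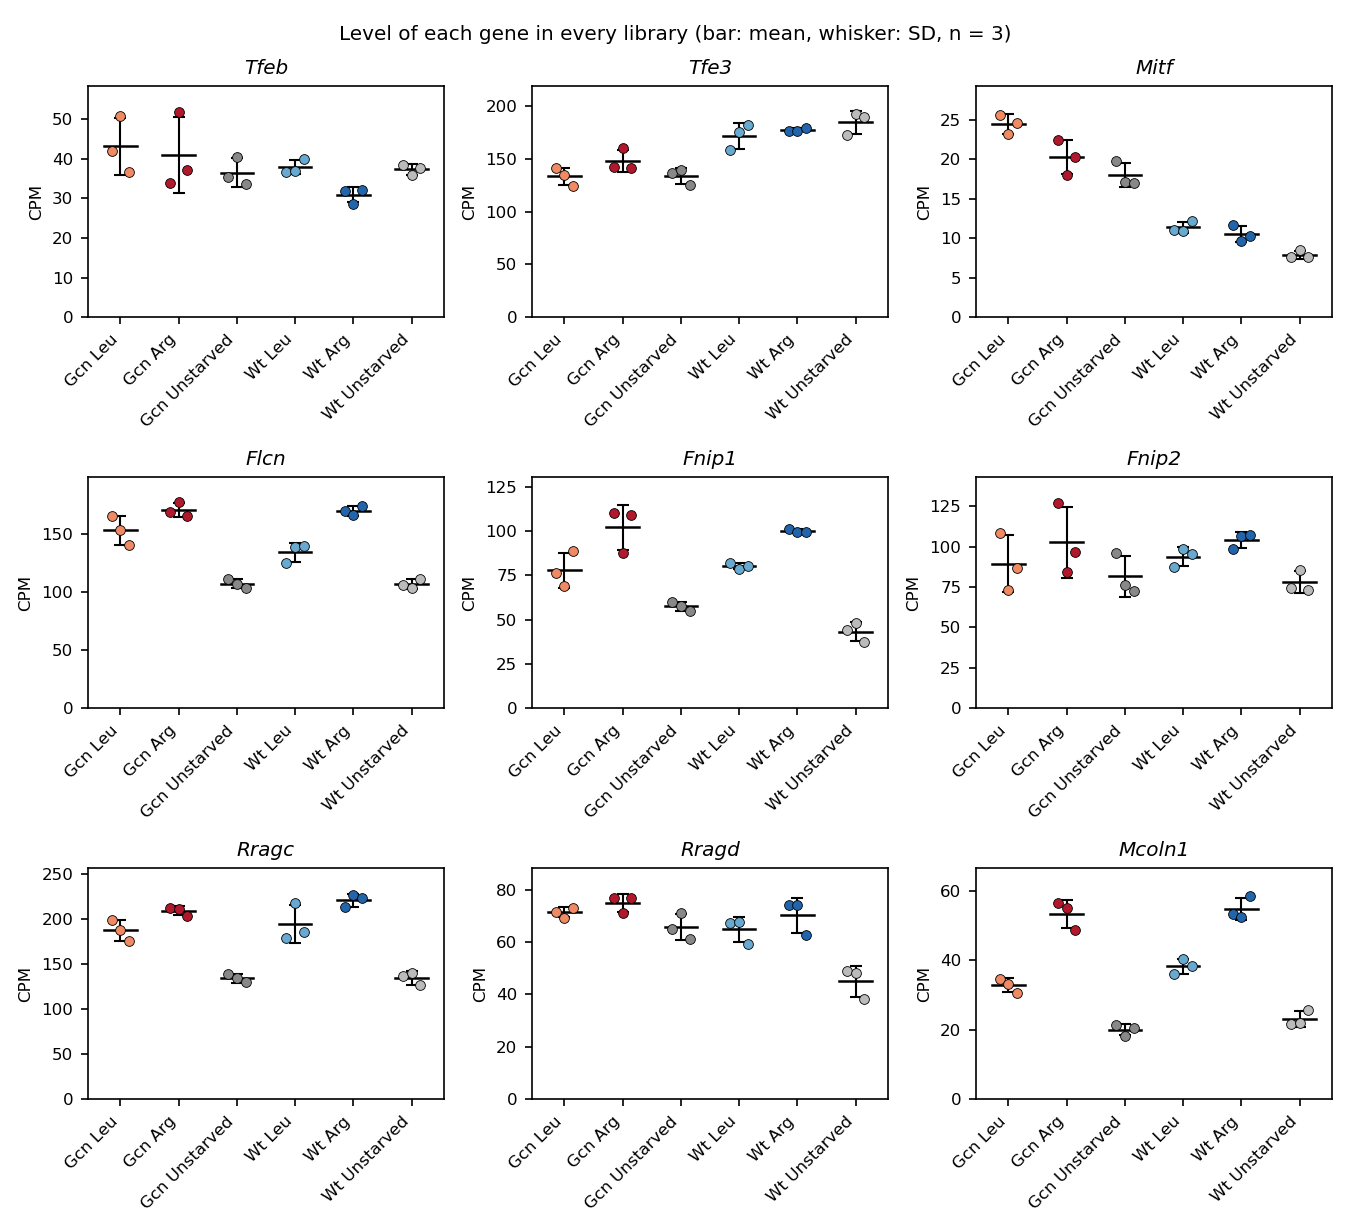
Level of each of the 9 genes in CPM (vertical axis, linear, from 0) in every library of the 6 groups; points are libraries, horizontal bars means and whiskers SD (n = 3). The starved groups of Flcn, Fnip1, Rragc and Mcoln1 lie wholly above their unstarved groups in both genotypes, and Tfe3 is lower and Mitf higher in Gcn Unstarved than in Wt Unstarved.

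**Figure D2:**
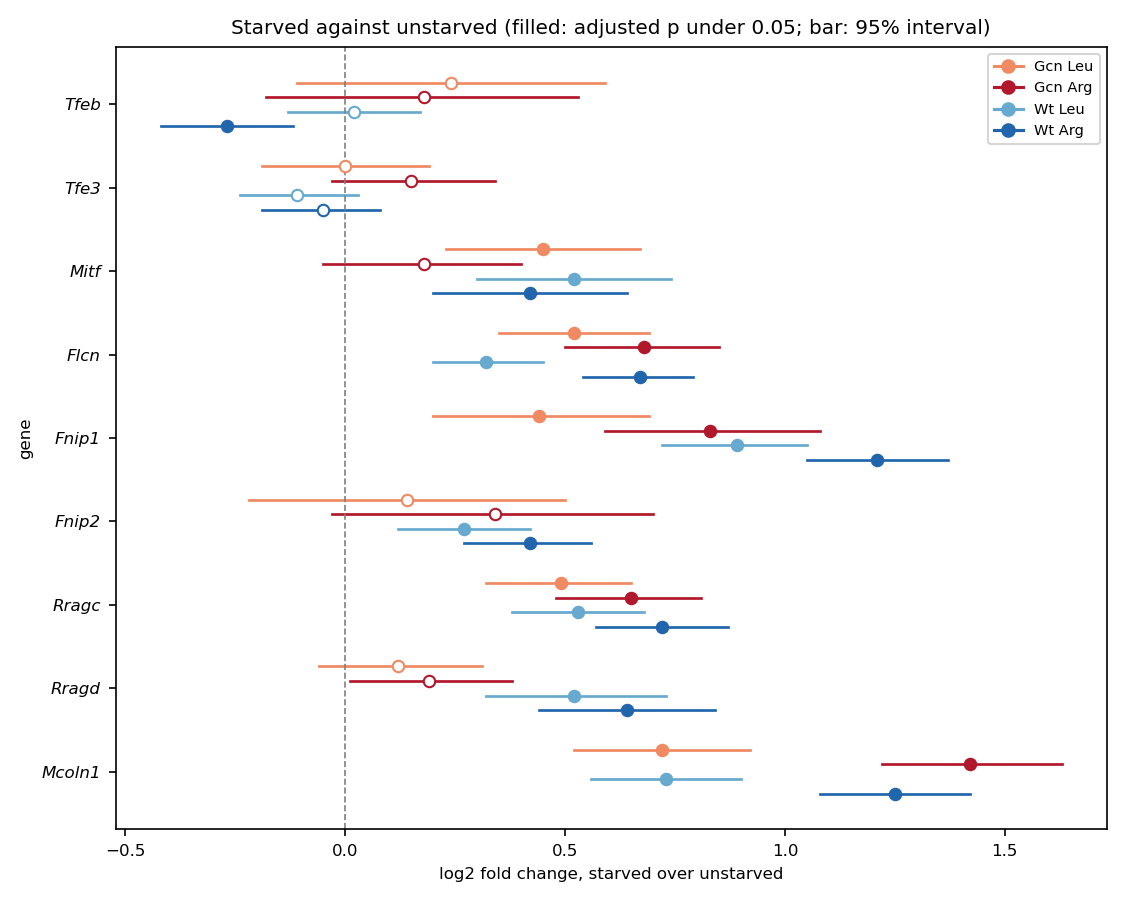
Log2 fold change of starved over unstarved cells (horizontal axis) for each gene, with 95% intervals from edgeR; filled points are called at an adjusted p under 0.05. Mcoln1 shows 1.42 in Gcn Arg and 1.25 in Wt Arg, and Rragd shows 0.19 in Gcn Arg and 0.64 in Wt Arg.

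Mcoln1 encodes TRPML1, the channel that releases calcium from lysosomes, and it showed the largest change of the 9 members in 3 of the 4 starvation comparisons and the second largest, after Fnip1, in Wt Leu. It stood at 34.73, 33.29 and 30.62 CPM in Gcn Leu, at 56.44, 54.94 and 48.61 CPM in Gcn Arg, and at 21.43, 18.2 and 20.5 CPM in Gcn Unstarved. In wild-type cells it stood at 35.96, 40.41 and 38.37 CPM in Wt Leu, at 53.46, 52.39 and 58.52 CPM in Wt Arg, and at 21.73, 21.83 and 25.81 CPM in Wt Unstarved. In each genotype the arginine-starved libraries were highest, the leucine-starved ones between, and the unstarved ones lowest, with no overlap. The log2 change was 0.72 ± 0.09 (SE, adjusted p = 0.000154) in Gcn Leu, 1.42 ± 0.09 (adjusted p = 4.83e-07) in Gcn Arg, 0.73 ± 0.08 (adjusted p = 6.52e-06) in Wt Leu and 1.25 ± 0.08 (adjusted p = 6.19e-09) in Wt Arg. Leucine-starved cells held less Mcoln1 RNA than arginine-starved cells, with a log2 difference of -0.70 ± 0.09 in Gcn (adjusted p = 0.000467) and -0.52 ± 0.08 in Wt (adjusted p = 0.000469).

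Flcn encodes folliculin, the subunit of the complex that acts on RagC and RagD. Its level was 165.4, 153.0 and 140.5 CPM in Gcn Leu, 169.1, 177.0 and 165.0 CPM in Gcn Arg, and 111.5, 106.5 and 103.5 CPM in Gcn Unstarved. Its level was 124.6, 138.5 and 139.3 CPM in Wt Leu, 169.2, 165.7 and 174.1 CPM in Wt Arg, and 106.1, 103.2 and 111.5 CPM in Wt Unstarved. Unstarved cells of both genotypes held the same level within their spread, and every starved library exceeded every unstarved one. The log2 change was 0.52 ± 0.08 in Gcn Leu (adjusted p = 0.000568), 0.68 ± 0.08 in Gcn Arg (adjusted p = 4.60e-05), 0.32 ± 0.06 in Wt Leu (adjusted p = 0.000681) and 0.67 ± 0.06 in Wt Arg (adjusted p = 2.81e-07). Leucine starvation left Flcn lower than arginine starvation in Wt (-0.34 ± 0.06, adjusted p = 0.0015). In Gcn the same difference was -0.16 ± 0.08 (adjusted p = 0.276, and 0.0344 with the replicate block).

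Fnip1 and Fnip2 encode the alternative partners of folliculin. Fnip1 stood at 76.02, 68.78 and 88.51 CPM in Gcn Leu, at 109.9, 87.51 and 108.9 CPM in Gcn Arg, and at 60.19, 57.55 and 55.04 CPM in Gcn Unstarved. In wild-type cells Fnip1 stood at 81.88, 78.51 and 80.04 CPM in Wt Leu, at 101.4, 99.2 and 99.67 CPM in Wt Arg, and at 43.97, 48.35 and 37.36 CPM in Wt Unstarved. The starved ranges of the genotypes overlapped, and every Gcn Unstarved library was above every Wt Unstarved library. Fnip1 changed by 0.44 ± 0.11 in Gcn Leu (adjusted p = 0.0129), 0.83 ± 0.11 in Gcn Arg (adjusted p = 0.00013), 0.89 ± 0.08 in Wt Leu (adjusted p = 4.48e-07) and 1.21 ± 0.08 in Wt Arg (adjusted p = 5.01e-09). The Gcn Leu call was lost without Gcn Leu 3 (adjusted p = 0.0626), Gcn Unstarved 2 (0.0554) or Gcn Unstarved 3 (0.0605), and held with the replicate block (0.000603). Leucine-starved cells held less Fnip1 than arginine-starved cells in Wt (-0.32 ± 0.07, adjusted p = 0.01; 0.059 when all 6 groups were fitted together).

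In Gcn that Fnip1 difference was -0.39 ± 0.11 (adjusted p = 0.0479). It was not called without Gcn Leu 1, Gcn Leu 2, Gcn Arg 1 or Gcn Arg 3 (adjusted p = 0.114 to 0.165) or without the 3 Gcn libraries numbered 1 (0.202), and was called with the replicate block (0.00213). Fnip2 ranged from 73.26 to 108.4 CPM in Gcn Leu, from 84.12 to 127.2 CPM in Gcn Arg and from 72.41 to 96.29 CPM in Gcn Unstarved. Within Gcn these ranges overlapped, and the library numbered 1 was the highest in each group. Fnip2 ranged from 87.51 to 98.64 CPM in Wt Leu, from 98.37 to 107.2 CPM in Wt Arg and from 73.42 to 85.69 CPM in Wt Unstarved. In Wt both starved groups lay above the unstarved group, with log2 changes of 0.27 ± 0.07 in Wt Leu (adjusted p = 0.00834, and 0.209 when all 6 groups were fitted together) and 0.42 ± 0.07 in Wt Arg (adjusted p = 0.000151). In Gcn the log2 differences were 0.14 ± 0.17 in Gcn Leu (adjusted p = 0.618) and 0.34 ± 0.17 in Gcn Arg (adjusted p = 0.155). With the replicate block, Fnip2 was called higher in Gcn Arg (adjusted p = 0.000757) and not in Gcn Leu (0.122).

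Rragc encodes RagC, a GTPase that pairs with RagA or RagB, and was the most abundant member per length. It stood at 198.7, 187.6 and 175.3 CPM in Gcn Leu, at 211.9, 211.3 and 203.4 CPM in Gcn Arg, and at 139.3, 133.8 and 129.4 CPM in Gcn Unstarved. It stood at 178.6, 218.0 and 185.7 CPM in Wt Leu, at 212.8, 226.8 and 222.5 CPM in Wt Arg, and at 136.8, 140.3 and 126.1 CPM in Wt Unstarved. Every starved library was above every unstarved one, and the unstarved levels of the genotypes overlapped. The log2 change was 0.49 ± 0.08 in Gcn Leu (adjusted p = 0.000633), 0.65 ± 0.08 in Gcn Arg (adjusted p = 4.47e-05), 0.53 ± 0.07 in Wt Leu (adjusted p = 3.85e-05) and 0.72 ± 0.07 in Wt Arg (adjusted p = 8.07e-07).

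Rragd encodes RagD, the relative of RagC that is known, mainly from human and mouse cells, as a target of MiT/TFE factors. Rragd stood at 71.56, 69.26 and 73.11 CPM in Gcn Leu, at 76.75, 71.04 and 76.86 CPM in Gcn Arg, and at 64.94, 71.12 and 61.22 CPM in Gcn Unstarved. Rragd stood at 67.37, 67.77 and 59.35 CPM in Wt Leu, at 73.97, 73.94 and 62.57 CPM in Wt Arg, and at 48.77, 48.06 and 38.29 CPM in Wt Unstarved. Wt Unstarved was the low group, and the other 5 overlapped along their order. Rragd rose in Wt Leu by 0.52 ± 0.10 (adjusted p = 0.000769) and in Wt Arg by 0.64 ± 0.10 (adjusted p = 7.15e-05). In Gcn the log2 differences were 0.12 ± 0.09 in Gcn Leu (adjusted p = 0.351) and 0.19 ± 0.09 in Gcn Arg (adjusted p = 0.112, and 0.0288 with the replicate block).

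Tfeb, a master regulator of lysosome formation, was the single member called lower in a starvation comparison. It stood at 41.86, 50.69 and 36.59 CPM in Gcn Leu, at 33.78, 51.83 and 37.07 CPM in Gcn Arg, and at 35.32, 40.5 and 33.55 CPM in Gcn Unstarved. It stood at 36.67, 36.85 and 39.95 CPM in Wt Leu, at 31.88, 28.66 and 31.97 CPM in Wt Arg, and at 38.37, 35.85 and 37.5 CPM in Wt Unstarved. The Gcn groups overlapped, with the library numbered 2 highest in each, and Wt Arg lay below the other Wt groups. Tfeb had a log2 change of -0.27 ± 0.07 in Wt Arg (adjusted p = 0.00571). That call did not hold with a correction for transcript GC content added to the replicate block (-0.01, adjusted p = 0.94) or when all 6 groups were fitted together (0.114). The longest Tfeb transcript is 63.2% GC, and over the 16126 genes of the Wt fit with a GC value, lower GC went with larger log2 changes in Wt Arg (Spearman's rho -0.307; genes are not independent replicates). In Wt Leu the Tfeb difference was 0.02 ± 0.07 (adjusted p = 0.874). With the GC correction and the block, Tfeb was called higher in 3 starvation comparisons, at 0.35 in Gcn Leu (adjusted p = 9.46e-05), 0.31 in Gcn Arg (0.000345) and 0.16 in Wt Leu (0.0248), and stood at -0.01 in Wt Arg.

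In Gcn the Tfeb difference was 0.24 ± 0.16 in Gcn Leu (adjusted p = 0.327, and 0.0175 with the replicate block) and 0.18 ± 0.16 in Gcn Arg (adjusted p = 0.462, and 0.102 with the block). Tfeb was higher in Wt Leu than in Wt Arg (0.29 ± 0.07, adjusted p = 0.0152), a call lost without Wt Leu 3 (0.0783), without Wt Arg 2 (0.0954) and when all 6 groups were fitted together (0.226). Tfe3, the family member tied to stem cell identity, ranged from 124.5 to 140.8 CPM in Gcn Leu, from 140.9 to 160.3 CPM in Gcn Arg and from 125.1 to 139.2 CPM in Gcn Unstarved. It ranged from 158.1 to 181.7 CPM in Wt Leu, from 176.5 to 179.2 CPM in Wt Arg and from 172.1 to 192.3 CPM in Wt Unstarved. Starvation left Tfe3 within 0.15 log2 units of the unstarved level in each genotype, and no change was called. With the replicate block its difference of 0.15 in Gcn Arg was called (adjusted p = 0.0314).

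Mitf, the family member best known from pigment cells, had group means of 1.277 to 3.955 reads per kilobase of exon after the same scaling (RPKM), the lowest of the 9 in every group but Gcn Unstarved. It stood at 25.7, 23.25 and 24.58 CPM in Gcn Leu, at 22.41, 18.06 and 20.35 CPM in Gcn Arg, and at 19.82, 17.2 and 17.06 CPM in Gcn Unstarved. It stood at 11.03, 10.97 and 12.16 CPM in Wt Leu, at 11.72, 9.645 and 10.29 CPM in Wt Arg, and at 7.681, 8.458 and 7.594 CPM in Wt Unstarved. Every Gcn library exceeded every Wt library, and within each genotype the leucine-starved mean was the highest. Mitf rose by 0.45 ± 0.10 in Gcn Leu (adjusted p = 0.00713), 0.52 ± 0.11 in Wt Leu (adjusted p = 0.0013) and 0.42 ± 0.10 in Wt Arg (adjusted p = 0.00421). In Gcn Arg the difference was 0.18 ± 0.11 (adjusted p = 0.238), with overlapping ranges; the adjusted p was 0.0675 with the replicate block and 0.0396 with the GC correction as well.

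Set directly against arginine starvation, leucine starvation gave lower Mcoln1 in both genotypes. Fnip1 was also called lower in both, but in Gcn its ranges overlapped and its adjusted p was 0.0479. That Gcn call was lost in several fits given above, with limma-voom (0.0541) and with only the compared groups (0.0772). In Gcn Leu against Gcn Arg, 0 members were called higher and 2 lower (Fnip1 and Mcoln1), where 8.52% of all genes were called and 3.88% were called lower. That is 1395 genes, and it was 710 without Gcn Leu 2 and 711 without Gcn Arg 3. The replicate numbers paired these libraries, and with the block 6 members were called, where 26.6% of all genes were. Mitf was higher (0.28, adjusted p = 0.00849) and Flcn, Fnip1, Fnip2, Rragc and Mcoln1 lower. In Wt Leu against Wt Arg, 1 member was called higher (Tfeb) and 3 lower (Flcn, Fnip1 and Mcoln1), where 10% of all genes were called, 5.25% higher and 4.76% lower. The 1615 genes behind that share were 1023 without Wt Leu 2, 987 without Wt Leu 3, 871 without Wt Arg 2 and 1022 without Wt Arg 3. With the block, which the numbers also supported here, Fnip2 (-0.15, adjusted p = 0.037) and Rragc (-0.19, adjusted p = 0.00831) were added, where 20.6% of all genes were called. The median log2 difference of the 9 members was -0.16 in Gcn and -0.15 in Wt, and that of all genes was 0 in both.

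Between unstarved cells of the genotypes, 4 of the 9 members were called, 3 higher and 1 lower in Gcn. Of all genes, 32.8% were called, 16.6% higher and 16.2% lower, so this count by itself does not set the members apart. Mitf averaged 18.03 ± 1.55 CPM in Gcn Unstarved and 7.911 ± 0.476 CPM in Wt Unstarved (SD, n = 3 each), a 2.28-fold higher level (log2 1.19 ± 0.11 SE, adjusted p = 1.96e-08). Rragd averaged 65.76 ± 5 CPM in Gcn Unstarved and 45.04 ± 5.85 CPM in Wt Unstarved (0.54 ± 0.09, adjusted p = 0.000106). Tfe3 averaged 133.7 ± 7.57 CPM in Gcn Unstarved and 184.5 ± 10.9 CPM in Wt Unstarved (-0.46 ± 0.08, adjusted p = 6.70e-05). These groups did not overlap for any of the 3 genes. Fnip1 averaged 57.59 ± 2.57 CPM in Gcn Unstarved and 43.23 ± 5.53 CPM in Wt Unstarved (0.41 ± 0.10, adjusted p = 0.00302), a difference of 0.12 (adjusted p = 0.0974) with the GC correction and the block. The Flcn difference was 0 (95% interval -0.15 to 0.15), and 0.13 (adjusted p = 0.0217) with the GC correction and the block. The Tfeb difference was -0.03 (adjusted p = 0.891), and 0.15 (0.0409) with that correction and the block. The Rragc difference was 0 (-0.16 to 0.16). Mcoln1 averaged 20.04 ± 1.66 CPM in Gcn Unstarved and 23.12 ± 2.33 CPM in Wt Unstarved, with ranges apart (-0.21 ± 0.09, adjusted p = 0.0997). It was called lower without the Gcn libraries numbered 1 (-0.26, adjusted p = 0.0484), with library size only (0.0496) and with the block (0.024). The fibroblast markers, 7.73 to 10.1 CPM in Gcn Unstarved and 17.9 to 22.7 CPM in Wt Unstarved, also differed by genotype, and their part in these differences was not tested. The genotype difference cannot be told apart from any difference between the lines that carry it.

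**Figure D3:**
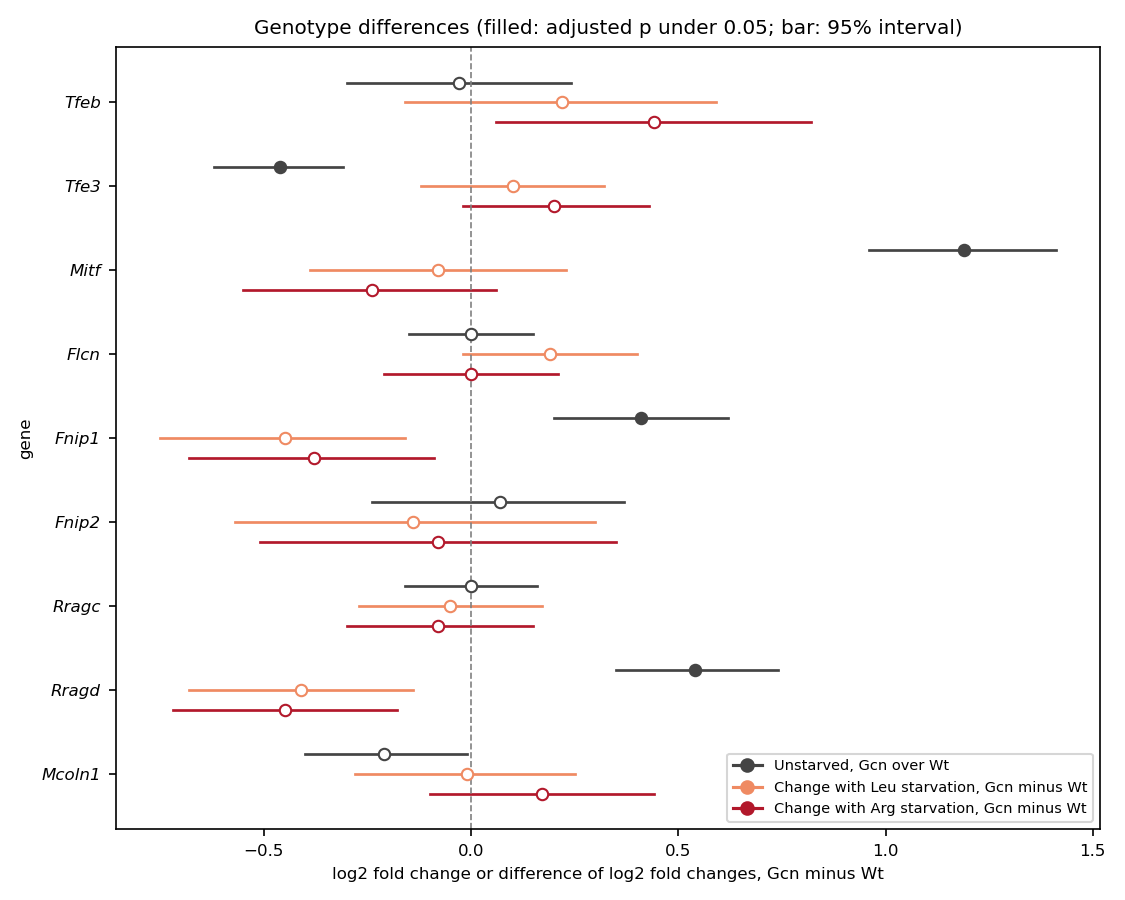
Difference between genotypes for each gene on the log2 scale (horizontal axis), with 95% intervals from edgeR: the unstarved level in Gcn over Wt, and the change with leucine or arginine starvation in Gcn minus that in Wt. Filled points are called; the unstarved differences of Tfe3 (-0.46), Mitf (1.19), Fnip1 (0.41) and Rragd (0.54) are filled, and none of the differences in response is.

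Whether the response to starvation itself differed between genotypes was tested as an interaction in a fit of all 18 libraries. In edgeR, 0 of 9 members passed for leucine, where 0.821% of all genes did, and 0 of 9 for arginine, where 2.3% did (1.68% lower). For leucine, 139 genes were called, against 257 without Gcn Leu 3, 74 to 91 without Gcn Leu 2, Gcn Unstarved 1, Gcn Unstarved 2, Wt Leu 1, Wt Leu 2, Wt Leu 3 or Wt Unstarved 3, and 377 with DESeq2. For arginine, 390 were called, against 187 to 254 without Gcn Arg 2, Gcn Unstarved 1, Gcn Unstarved 2, Wt Arg 1, Wt Arg 2, Wt Arg 3, Wt Unstarved 1 or Wt Unstarved 3, and 781 with DESeq2. At an unadjusted p under 0.05 there were 2 members for leucine (Fnip1 and Rragd) and 3 for arginine (these and Tfeb). The share of all genes at that threshold was not counted. With limma-voom 0 and 0 were called, and DESeq2 called 0 for leucine and 1 for arginine. The Tfeb change with arginine, Gcn minus Wt, was 0.44 (95% interval 0.06 to 0.82, adjusted p = 0.218). For Rragd, the log2 change in Gcn minus that in Wt was -0.41 (95% interval -0.68 to -0.14, adjusted p = 0.15) for leucine and -0.45 (-0.72 to -0.18, adjusted p = 0.0741) for arginine. DESeq2 gave an adjusted p of 0.0257 for Rragd and arginine. For Fnip1 this difference was -0.45 (-0.75 to -0.16, adjusted p = 0.141) for leucine and -0.38 (-0.68 to -0.09, adjusted p = 0.158) for arginine. For both genes the unstarved ranges of the genotypes were apart. The starved ranges overlapped for Fnip1 and, with arginine, for Rragd, while Gcn Leu lay above Wt Leu for Rragd.

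The block on replicate number moved these calls. With it, Rragd (adjusted p = 0.00228) and Fnip1 (0.0128) were called for leucine, and Rragd (0.000563), Fnip1 (0.0239) and Tfeb (0.43, adjusted p = 0.00439) for arginine. Of all genes, 11.1% were called with the block for leucine and 14.8% for arginine. With the GC correction as well, the Fnip1 difference for arginine was -0.23 (adjusted p = 0.0606) and the other 4 calls held. By the correlation given under the processing, same-numbered pairs were all over 0.1 in the Gcn comparisons with unstarved cells, but not in the Wt ones. That cut does not show the Wt numbers to be unpaired. In Wt Arg and Wt Unstarved, same-numbered libraries correlated at 0.1 to 0.2 and differently numbered ones at -0.16 to -0.03. For Flcn the difference in response was 0.19 (-0.02 to 0.40) for leucine and 0 (-0.21 to 0.21) for arginine, for Rragc -0.05 (-0.27 to 0.17) and -0.08 (-0.30 to 0.15), and for Mcoln1 -0.01 (-0.28 to 0.25) and 0.17 (-0.10 to 0.44). For comparison, 12 known targets of ATF4, the factor downstream of GCN2, were called lower in the interaction for 9 genes with leucine and 10 with arginine.

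Per length, in RPKM, the members of each family held unequal shares. Tfe3 made up 55.5% of the summed RPKM of the 3 factors in Gcn Leu, 60.5% in Gcn Arg and 60.7% in Gcn Unstarved, and 68.5% in Wt Leu, 72.9% in Wt Arg and 71.7% in Wt Unstarved. Mitf made up 12.3% ± 1.05 in Gcn Unstarved and 4.6% ± 0.236 in Wt Unstarved (SD, n = 3 each; difference 7.65 points, exact two-sided permutation p = 0.1, the smallest that 3 libraries against 3 allow). Rragc averaged 40.16 RPKM in Gcn Unstarved and 40.23 RPKM in Wt Unstarved, and Rragd averaged 12.71 RPKM in Gcn Unstarved and 8.707 RPKM in Wt Unstarved, so Rragc was the main RNA of the pair. The Rragd share of that pair was 24% ± 1.33 in Gcn Unstarved and 17.7% ± 1.2 in Wt Unstarved (exact permutation p = 0.1, ranges apart). In starved cells it was 19.8% in Gcn Leu, 18.8% in Gcn Arg, 17.8% in Wt Leu and 17% in Wt Arg. Fnip2 made up 49.3% of the Fnip pair in Gcn Leu, 45.9% in Gcn Arg and 54.5% in Gcn Unstarved, and 49.9% in Wt Leu, 46.9% in Wt Arg and 60.6% in Wt Unstarved. The Fnip2 share lay wholly below the unstarved one in Gcn Arg, Wt Leu and Wt Arg (exact permutation p = 0.1 for each, the smallest possible), and overlapped it in Gcn Leu (exact permutation p = 0.3).

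**Figure D4:**
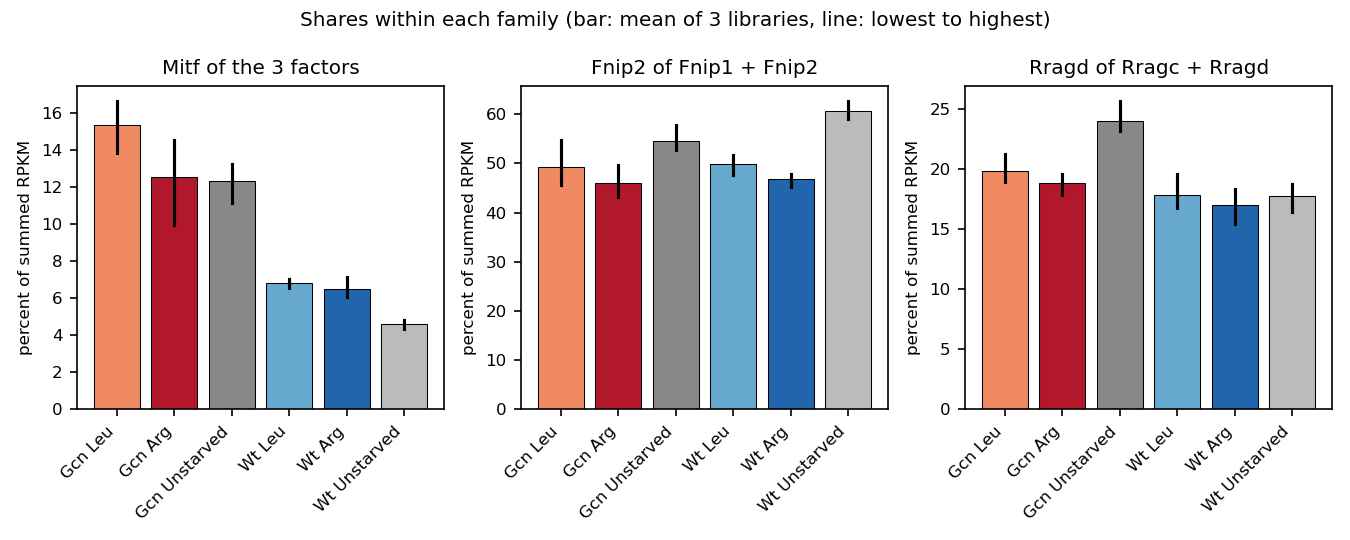
Share of Mitf among Tfeb, Tfe3 and Mitf, of Fnip2 among Fnip1 and Fnip2, and of Rragd among Rragc and Rragd, in percent of summed RPKM (vertical axes, from 0) for the 6 groups; bars are means of 3 libraries and lines run from the lowest to the highest library. Mitf shares are higher in every Gcn group than in the Wt groups, and the Rragd share is highest in Gcn Unstarved (24%).

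The wider set of lysosomal and autophagy genes listed as targets of MiT/TFE factors was mostly called higher as well. Of the 35 genes listed, 34 were in the tables and 32 were tested. Of these, 21 were called higher and 1 lower in Gcn Leu, 22 and 0 in Gcn Arg, 22 and 1 in Wt Leu, and 26 and 1 in Wt Arg. Their median log2 change was 0.45 in Gcn Leu, 0.47 in Gcn Arg, 0.39 in Wt Leu and 0.50 in Wt Arg, where that of all genes was within 0.01 of 0. Naglu, a lysosomal enzyme that degrades heparan sulphate, rose by 1.63 ± 0.21 in Gcn Leu (adjusted p = 0.000155), 2.43 ± 0.21 in Gcn Arg (adjusted p = 3.14e-06), 1.34 ± 0.18 in Wt Leu (adjusted p = 4.09e-05) and 1.95 ± 0.17 in Wt Arg (adjusted p = 2.12e-07). Hexa, a subunit of beta-hexosaminidase, rose by 1.03 in Gcn Leu, 1.53 in Gcn Arg, 1.15 in Wt Leu and 1.49 in Wt Arg. Sgsh, another heparan sulphate enzyme, rose by 1.63 in Gcn Leu, 1.84 in Gcn Arg, 0.85 in Wt Leu and 0.99 in Wt Arg. Ctsa, the protective protein of the lysosome, rose by 0.97 in Gcn Leu, 1.19 in Gcn Arg, 0.99 in Wt Leu and 1.26 in Wt Arg. In the interaction, 0 of 32 were called for leucine, and 1 was called higher and 2 lower for arginine.

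**Figure D5:**
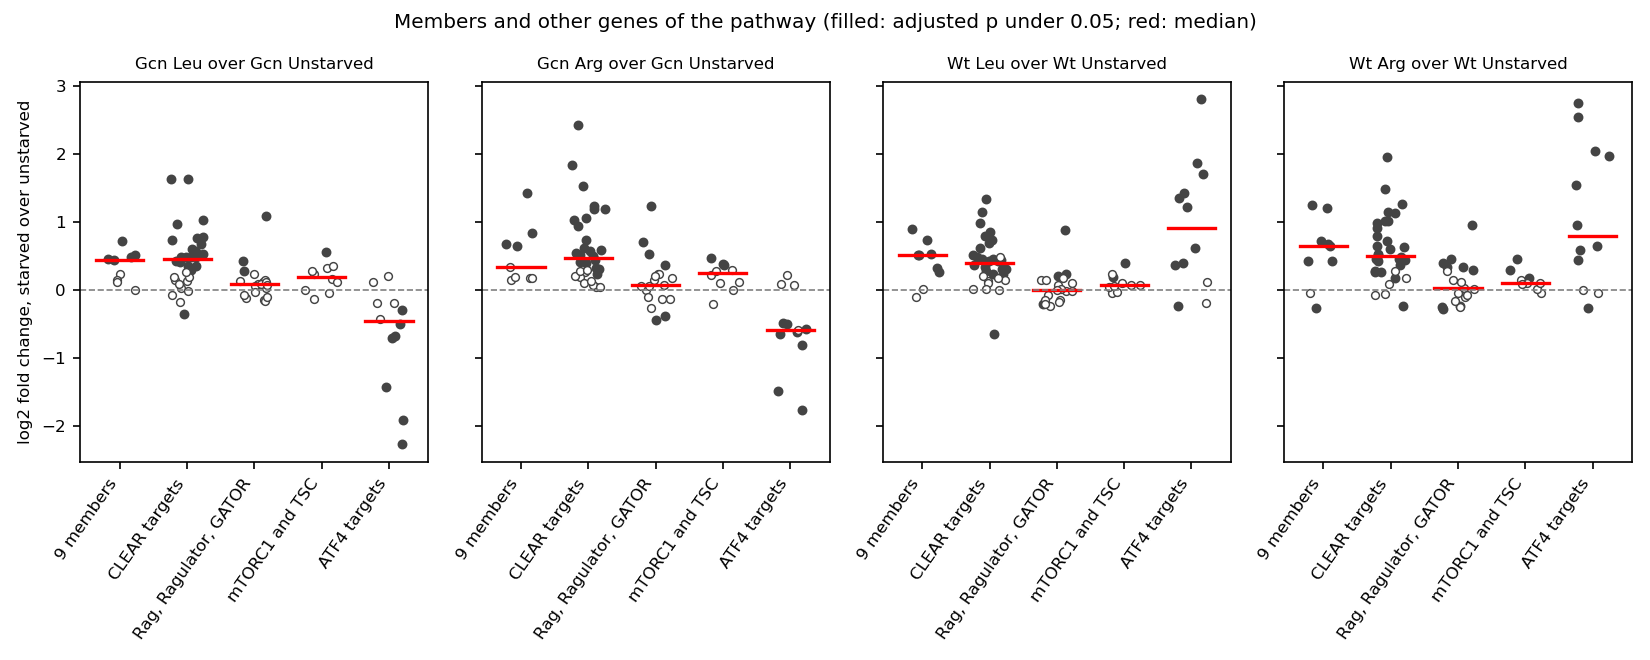
Log2 fold change of starved over unstarved cells (vertical axis) for the 9 members, the MiT/TFE target list, the Rag, Ragulator and GATOR partners, the mTORC1 and TSC genes and 12 ATF4 targets, in the 4 starvation comparisons; each point is a gene, filled when called, and red bars are medians. The medians of the MiT/TFE targets lie between 0.39 and 0.50 in all 4 panels, while those of the ATF4 targets are -0.46 and -0.58 in Gcn and 0.92 and 0.80 in Wt.

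Of 19 Rag, Ragulator and GATOR partners, 3 were called higher and 0 lower in Gcn Leu, 4 and 2 in Gcn Arg, 3 and 1 in Wt Leu, and 6 and 3 in Wt Arg. That is 15.8% in Gcn Leu, 31.6% in Gcn Arg, 21.1% in Wt Leu and 47.4% in Wt Arg, where 21.8%, 28%, 29.6% and 40.9% of all genes were called. The list's median log2 change was 0.09 in Gcn Leu, 0.08 in Gcn Arg, 0 in Wt Leu and 0.03 in Wt Arg. Itfg2, a subunit of the KICSTOR complex that holds GATOR1 at the lysosome, rose by 1.08 ± 0.10 in Gcn Leu (adjusted p = 1.42e-05), 1.24 ± 0.10 in Gcn Arg (adjusted p = 2.33e-06), 0.88 ± 0.06 in Wt Leu (adjusted p = 7.10e-08) and 0.95 ± 0.06 in Wt Arg (adjusted p = 6.12e-09). Lamtor1, the Ragulator anchor, rose by 0.43 in Gcn Leu, 0.53 in Gcn Arg, 0.20 in Wt Leu and 0.34 in Wt Arg. Rragb, which encodes RagB, rose by 0.28 in Gcn Leu, 0.36 in Gcn Arg and 0.39 in Wt Arg, and stood at 0.15 in Wt Leu. Nprl3 of GATOR1 rose by 0.71 in Gcn Arg and 0.34 in Wt Arg, and stood at 0.03 in Gcn Leu and -0.01 in Wt Leu. Wdr59 of GATOR2 rose by 0.23 in Wt Leu and 0.29 in Wt Arg, and stood at 0.14 in Gcn Leu and 0.24 in Gcn Arg. Slc38a9, a lysosomal arginine sensor, rose by 0.46 in Wt Arg, and stood at -0.07 in Gcn Leu, 0.23 in Gcn Arg and 0.17 in Wt Leu. Of 10 genes of mTORC1 and the TSC complex, 1 was called higher in Gcn Leu, 3 in Gcn Arg, 2 in Wt Leu and 3 in Wt Arg. In each comparison 0 were called lower. These shares were 10% in Gcn Leu, 30% in Gcn Arg, 20% in Wt Leu and 30% in Wt Arg. Of all genes, 21.8%, 28%, 29.6% and 40.9% were called, so these counts do not set the list apart. Tsc1, which restrains mTORC1, rose by 0.56 in Gcn Leu, 0.47 in Gcn Arg, 0.40 in Wt Leu and 0.45 in Wt Arg.

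Among 19 kinases, the phosphatase, 14-3-3 and export genes that act on the factors and folliculin's relatives, 1 was called higher and 7 lower in Gcn Leu, 1 and 5 in Gcn Arg, 4 and 7 in Wt Leu, and 4 and 5 in Wt Arg. That is 42.1% in Gcn Leu, 31.6% in Gcn Arg, 57.9% in Wt Leu and 47.4% in Wt Arg, where 21.8%, 28%, 29.6% and 40.9% of all genes were called. The median log2 change of these 19 genes was -0.16 in Gcn Leu, -0.15 in Gcn Arg, -0.09 in Wt Leu and 0.01 in Wt Arg. Smcr8, which forms a folliculin-like complex, rose by 0.74 in Gcn Leu, 0.85 in Gcn Arg, 0.68 in Wt Leu and 0.97 in Wt Arg. Sfn, a 14-3-3 protein of the kind that holds phosphorylated Tfeb in the cytoplasm, fell by 0.95 in Gcn Leu, 0.97 in Gcn Arg, 0.93 in Wt Leu and 0.90 in Wt Arg. Of 6 lysosomal channels and relatives of the members, Tmem175, a lysosomal potassium and proton channel, rose by 0.80 in Gcn Arg, 0.43 in Wt Leu and 0.76 in Wt Arg, and stood at 0.39 in Gcn Leu. Tpcn1, a calcium channel of endosomes and lysosomes, fell by 0.61 in Gcn Arg and 0.31 in Wt Arg, and stood at -0.08 in Gcn Leu and -0.09 in Wt Leu. Among 9 targets of Mitf in pigment cells, Tyr, Tyrp1 and Dct had at most 3 counts in any library, and 4 were tested in Gcn and 5 in Wt. In each starvation comparison 3 were called higher; 1 was called lower in Wt Arg, Mlana (-0.75 ± 0.28, adjusted p = 0.0437), which is named after its value was seen. Pmel, which forms melanosome fibrils, rose by 0.78 ± 0.15 in Gcn Leu, 1.00 ± 0.15 in Gcn Arg, 0.62 ± 0.09 in Wt Leu and 0.88 ± 0.09 in Wt Arg. Trpm1, a cation channel gene, rose by 1.13 ± 0.27 in Gcn Leu, 1.95 ± 0.27 in Gcn Arg, 1.80 ± 0.27 in Wt Leu and 2.57 ± 0.26 in Wt Arg. Gpr143, a melanosomal receptor, was also called higher in all 4, with at most 56 counts in a library.

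Across the 18 libraries, after each genotype's mean was removed, the levels of several members ran closely together. Pearson's r of log2 CPM was 0.96 between Flcn and Mcoln1, 0.95 between Flcn and Rragc, 0.94 between Rragc and Mcoln1 and 0.92 between Fnip1 and Rragc. These genes were called higher in every starvation comparison, and those changes remain in the values. Tfeb and Tfe3 did not run with them, with r of 0 between Tfeb and Flcn and 0.26 between Tfe3 and Flcn. Between Tfeb and Fnip2 r was -0.46. The points share libraries and starvation groups, so these values describe a pattern and carry no test. Of 16923 genes searched, Slc25a44 was the nearest to both Flcn (r = 0.978) and Mcoln1 (r = 0.989). Clcn7, a lysosomal chloride transporter, came next for Mcoln1 (0.987) and Wdr81 for Flcn (0.976). Neil2 (0.986) and Dusp4 (0.985) were nearest to Rragc, and Klhl24 (0.986) and Sirt1 (0.983) to Fnip1. For Mitf the nearest were Ptch1 (0.941) and Jade1 (0.937), for Rragd Eif5a2 (0.948) and Pcmtd1 (0.946), and for Fnip2 Osbpl1a (0.95) and Spen (0.945).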

How the data were processed

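The authors deposited raw counts per Ensembl gene, 1 table per genotype with 9 libraries each; their normalized tables were not used here. Per the submitters' processing notes, the tools included STAR 2.7.4a and HTSeq with build GRCm38. Neither the counting's strand option nor its annotation is given in the sources used here; Rragc shares 264 exon bases with an antisense gene. Of 55471 identifiers, 55230 matched GENCODE vM21. Counts were fitted with edgeR 4.0.16 (filterByExpr, TMM, robust quasi-likelihood; limma 3.58.1, DESeq2 1.42.0 and R 4.3.3 for alternatives), per genotype (16369 genes in Gcn, 16140 in Wt) or over all 18 libraries (16924 genes) for the genotype comparison and interactions. The pipeline was also run on simulated counts, with the same spread for every gene and no replicate-number or GC effects. That run could not test how such effects in these libraries bear on the calls. RPKM used vM21 exon lengths. The members, gene lists and tests were chosen with earlier results of these data known. All 9 members are named, with at most the 3 called genes of largest change per list and starvation comparison and the 2 genes nearest each member called in 2 or more of them. Marker lists were counted in the same fits.

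The labels number replicates 1 to 3 in each group. Deviations of same-numbered libraries from their group means correlated at 0.20 to 0.46 in Gcn Leu and Gcn Unstarved and 0.18 to 0.45 in Gcn Arg and Gcn Unstarved. They correlated at 0.31 to 0.49 in Gcn Leu and Gcn Arg, and 0.17 to 0.28 in Wt Leu and Wt Arg. All were over 0.1, the cut used here for taking the numbers to pair libraries. The lowest same-numbered value was 0.05 in Wt Leu and Wt Unstarved, no more than 0.1 in Wt Arg and Wt Unstarved, and -0.16 between the unstarved genotypes. Between different numbers, Gcn Arg 2 and Gcn Unstarved 3 correlated at 0.22, and Gcn Leu 2 and Gcn Unstarved 3 at 0.21. In those comparisons number 1 stood apart, and the pairing of numbers 2 and 3 was not clear. No 2 libraries of a group agreed within counting noise (chi-square per gene 7.49 to 35.7). Alternatives were other scalings, filters and tools, other sets of groups, the replicate block, a GC correction, and leaving out libraries.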

Additional observations from a re-analysis of the deposited data

How the results depend on the processing

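Flcn, Rragc and Mcoln1 kept their direction and call in all 198 alternative values of the 4 starvation comparisons, 66 for each gene. Of 66, direction and call status were kept in 65 for Mitf, 63 for Fnip1, 63 for Rragd, 61 for Fnip2, 57 for Tfeb and 54 for Tfe3. These alternatives use the same libraries and are not independent. With the replicate block, the members called were 7 in Gcn Arg, 6 in Gcn Leu against Gcn Arg, 2 for the leucine interaction and 3 for the arginine one, against 4, 2, 0 and 0 without it; all genes called were 7602 against 4583 in Gcn Arg, 6651 against 3561 in Gcn Leu, 4362 against 1395 in Gcn Leu against Gcn Arg, 3328 against 1615 in Wt Leu against Wt Arg, 1878 against 139 and 2505 against 390. With the GC correction added, the members called were 9, 7, 2 and 2 in the same order, where 49.6%, 31%, 11% and 14.1% of all genes were called. Members called in Gcn Leu against Gcn Arg were 1 with limma-voom, with only the compared groups, and without the Gcn libraries numbered 1. They were 2 in Wt Leu against Wt Arg with all 6 groups in the fit, against 4, and 1 for the arginine interaction with DESeq2 or no filter on low counts. Leaving out 1 library at a time gave 1 to 2 in Gcn Leu against Gcn Arg and 0 to 1 for each interaction.

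Library size without TMM moved the median of all genes by 0.12 in Gcn Arg, with 71.2% of calls higher against 51% (71% against 53.9% in Gcn Leu), and added Tfe3 (0.27) and Rragd (0.31) there. Apart from the fits that left out 1 library, signs turned for values between -0.08 and 0.07 in the fits reported above. Tfe3 in Gcn Leu was 0 to -0.04 (0, -0.01, -0.04) under other scalings, filters, DESeq2, all 6 groups, the GC correction or without the Gcn libraries numbered 1. Without those, Tfeb was -0.04 in Gcn Leu against Gcn Arg, and the unstarved genotype differences were -0.03 for Flcn and -0.07 for Fnip2. With the GC correction and the block, the unstarved difference of Tfeb turned from -0.03 to 0.15 and was called (adjusted p = 0.0409). With library size only, Flcn unstarved was -0.03; with no filter, Rragc unstarved was 0. Interactions that turned were 0.01 for Fnip2 and 0.02 for Rragc (arginine, library size), 0.02 for Rragc and 0.05 for Mcoln1 (leucine, library size), -0.02, -0.01 and -0.10 for Flcn (arginine; no filter, only the compared groups, GC correction), 0.04 for Mitf (leucine, GC correction), and 0 and 0.01 for Mcoln1 (leucine; no filter, without the Gcn libraries numbered 1). The cause was not tested.

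Leaving out 1 library turned signs within these ranges: arginine interaction, Flcn -0.03 to 0.03 and Fnip2 -0.26 to 0.05; leucine interaction, Rragc -0.11 to 0.05 and Mcoln1 -0.10 to 0.04; unstarved genotypes, Flcn -0.03 to 0.03, Rragc -0.05 to 0.03, Fnip2 -0.07 to 0.14 and Tfeb -0.12 to 0.02; Gcn Leu, Tfe3 -0.06 to 0.03 and Fnip2 -0.01 to 0.26; Gcn Arg, Tfeb -0.04 to 0.31; Gcn Leu against Gcn Arg, Tfeb -0.07 to 0.27; Wt Leu, Tfeb -0.03 to 0.04; Wt Leu against Wt Arg, Tfe3 -0.10 to 0.01. The smallest effects are limited by 3 libraries a group: the 95% intervals of the interactions reach 0.44 for Mcoln1 and 0.82 for Tfeb with arginine, and -0.75 for Fnip1 with leucine.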
